A study of Bos taurus with 10 samples.

Results

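Liver was compared with mammary gland of a cow at peak lactation, on the 4 arrays whose titles name these tissues, out of 10 arrays in the series. The series holds 5 bovine tissues, the other 3 being mesenteric, omental and subcutaneous adipose tissue. Total RNA of each tissue was hybridised on cDNA microarrays, in which cloned cDNAs are spotted on glass, against a common reference pooled from several tissues, with the tissue in the dye Cy3 on the first array and in Cy5 on the other. Both arrays of a tissue carry the same RNA, so each tissue is 1 sample on 2 arrays. Each sample was labelled as coming from a cow at peak lactation, with no treatment named. The sources used here do not give the breed, age, diet or number of the animals, nor whether RNA was pooled. With 1 sample a tissue there is no spread between animals and no p-value, and a value describes these RNA samples only.

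At peak lactation the mammary gland draws glucose, acetate, amino acids and fatty acids from the blood and secretes lactose, casein and fat globules wrapped in cell membrane. The liver makes the glucose, oxidises fatty acids released by adipose tissue, exports plasma proteins and clears nitrogen, bile acids and foreign compounds. Hepatocytes make up most of the liver mass, beside the resident macrophages called Kupffer cells, whereas the lactating gland is mostly secretory epithelium with myoepithelial cells and stroma.

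Each value is a level, the log2 ratio of tissue to reference with the array's median set to 0, so a level compares samples for 1 gene and not genes with each other. Of 16416 spots on an array, 15970 to 16208 had a value on the 4 arrays, and duplicate spots correlated at 0.84 to 0.92. As deposited, the array medians were -0.65 and 0.03 for liver in Cy3 and Cy5 and -1.14 and -0.04 for mammary gland. The 2 liver arrays correlated at -0.78 across spots and the 2 mammary arrays at -0.66, whereas arrays of the same dye correlated at 0.38 (Cy3) and 0.47 (Cy5), so the sign was turned for the arrays with the tissue in Cy3. That the ratio then runs as tissue over reference is likely, not stated: it rests on the design text and on the known hepatocyte and milk genes, so the directions of those genes are not independent evidence. Were the ratio the other way round, all signs would turn. Gene names rest on a reconstruction of the print layout, and a single clone can carry a wrong name.

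The labels were set against marker genes of both tissues. Of 20 hepatocyte markers listed, 5 were measured, and 4 of these were higher in liver. RBP4, the plasma carrier of retinol, stood at 2.59 and 6.50 in liver (Cy3, then Cy5) and at -4.70 and -1.49 in mammary gland. APOA1, the main protein of high-density lipoprotein, was the exception, at 0.48 and 1.22 in liver and 0.47 and 0.17 in mammary gland, a difference of 0.53 ± 0.52 (1.05 with the Cy5 arrays alone). All 8 measured of 17 mammary epithelial markers were higher in mammary gland, with a median difference of -2.85. Both marker lists were chosen with earlier results of these data known, so the counts are a description and no independent check of the labels. The caseins, albumin and the other listed markers were not analysed here.

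A gene was counted as higher in a tissue where the mean difference between liver and mammary gland was at least 2-fold (1 log2 unit) and had the same sign in both dye orientations. The error printed after ± is the gap between the orientations divided by 2 and covers the array measurement only. By this rule 406 of 4325 genes were higher in liver (9.39%), against 192 in mammary gland (4.44%), together 13.8%. A dye contrast took 32 genes (0.74%). In these the error was at least 1 log2 unit, and Cy5 minus Cy3 had opposite signs in liver and mammary gland. A dye shift shared by both tissues cancels in this contrast, so it is not a count of the genes that the dye moves. Without centring, the difference of the median gene moved from -0.01 to -0.22, and the split changed from 67.9% higher in liver to 50.4%, at 304 genes in liver against 299 in mammary gland. All 304 were among the 406. The differences across genes correlated at 0.79 between the orientations, over genes that share the same 4 arrays.

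**Figure D1:**
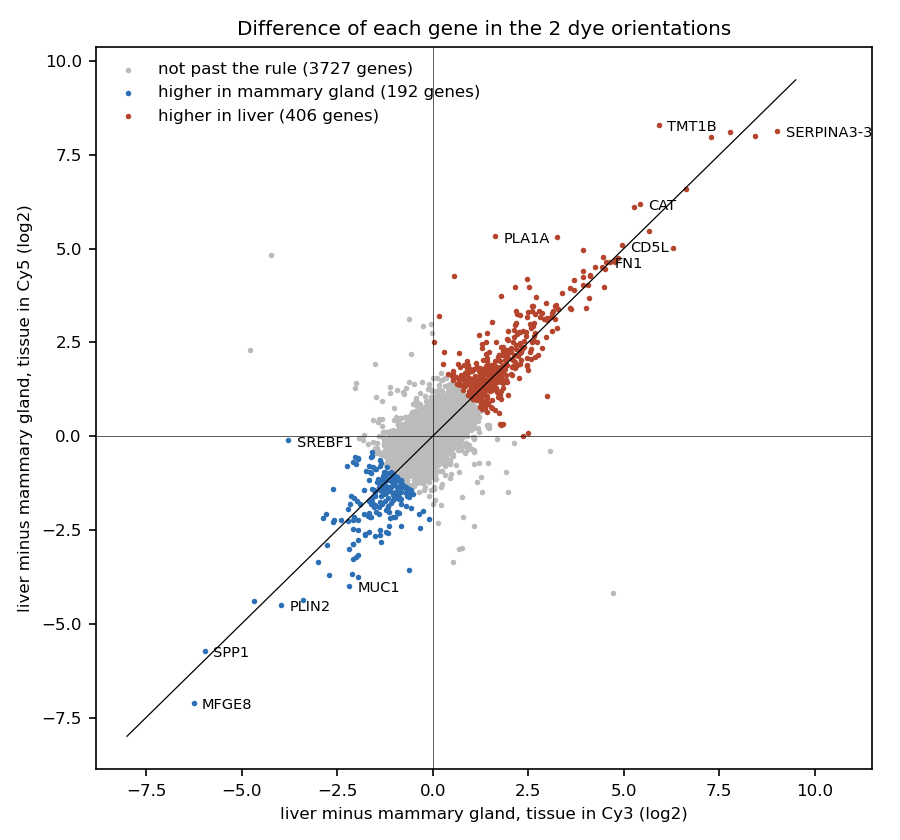
Liver minus mammary gland for 4325 genes, with the tissue in Cy3 on the horizontal axis and in Cy5 on the vertical axis, both in log2 units; each point is a gene and the line marks equal values. The 406 genes higher in liver reach farther from 0 than the 192 higher in mammary gland, and SREBF1 lies far from the line.

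The differences were larger on the liver side. The median difference was 1.64 among genes higher in liver, with a median error of 0.16, and -1.37 among genes higher in mammary gland, with a median error of 0.25. At least 4-fold were 143 genes in liver and 38 in mammary gland, and at least 16-fold 28 and 4. At the edge of the rule, PNP (1.0 ± 0.27) and VDR (-1.01 ± 0.43) lay just inside it, and AHCYL1 (0.998 ± 0.307) and ZBTB7A (-0.999 ± 0.140) just outside. A further 10 genes were past 2-fold with opposite signs in the orientations and were not counted. Of 73 genes higher in liver with several cDNA elements, 67 had all elements on the same side of 0, as did 45 of 46 in mammary gland. The layout had been chosen for likeness of such elements, so this is a description of the names only.

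The gene with the largest difference was SERPINA3-3, an antichymotrypsin-type protease inhibitor of plasma from a family of near-identical bovine copies that a cDNA element may not separate. Its level was 2.94 and 7.78 in liver and -6.08 and -0.35 in mammary gland, so no value of one tissue reached those of the other, and the difference was 8.58 ± 0.45 (382-fold). HAVCR1, a phosphatidylserine receptor, stood at 3.29 and 8.17 in liver and -5.16 and 0.16 in mammary gland, a difference of 8.23 ± 0.22. UNC13D, a factor of granule exocytosis, differed by 7.94 ± 0.16 and TMT1B, a methyltransferase gene of the endoplasmic reticulum, by 7.11 ± 1.19. All 4 genes were measured by 1 element each, and their levels in liver were above those in each adipose depot by more than 2-fold.

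RBP4 at 7.64 ± 0.35 lay between UNC13D and TMT1B in the order. After TMT1B came LOC616364 at 6.61 ± 0.01, catalase (CAT) at 5.81 ± 0.39 and LOC515150 at 5.69 ± 0.41. The order among the first 3 is not separated by their errors for every pair, since SERPINA3-3 and HAVCR1 differ by less than the error of the former. LOC327709, which the gene table also lists as GSTM1, a glutathione transferase, stood at 2.99 and 5.51 in liver and -1.85 and 0.76 in mammary gland. DPP4, a peptidase of the bile canalicular membrane, was at 3.08 and 5.39 in liver and -1.70 and 0.75 in mammary gland, a difference of 4.71 ± 0.07. Fibronectin (FN1), an adhesive protein of plasma and matrix, had a different pattern: its liver levels were near 0, at 0.36 and 0.80, and its mammary levels were -4.19 and -3.85. The element named PPP1R16A differed from FN1 by at most 0.23 on any of the 10 arrays, and its difference of 4.73 ± 0.05 is close to that of FN1 (4.60 ± 0.05).

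**Figure D2:**
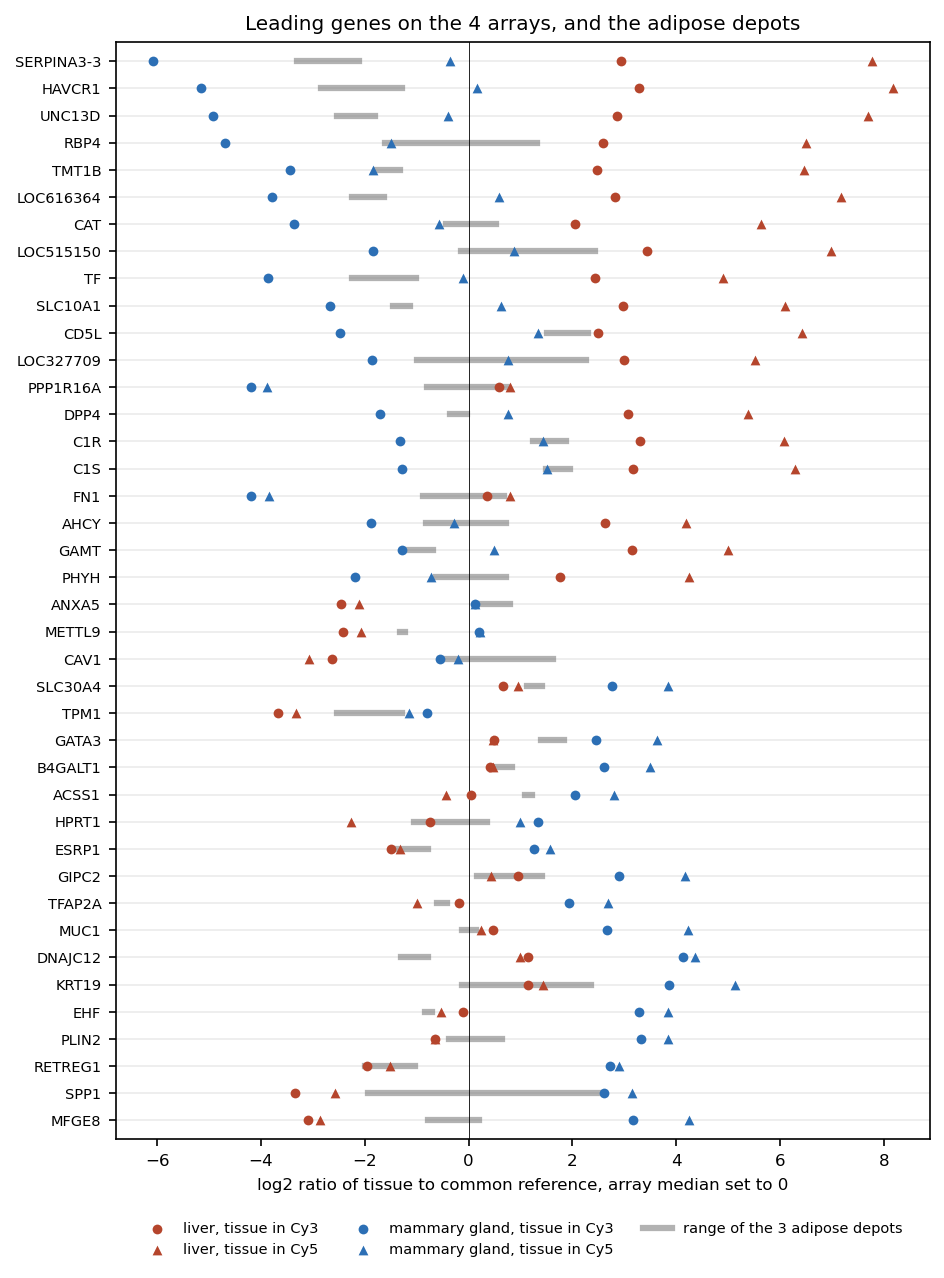
Levels of the 20 genes with the largest difference in favour of liver (top) and of 20 leading genes in favour of mammary gland (bottom; VEGFB is left out because it lacks a value in a depot), as log2 ratios to the reference. Circles are arrays with the tissue in Cy3, triangles with it in Cy5, and grey bars span the means of the 3 adipose depots. The liver values of SERPINA3-3 lie at 2.94 and 7.78 and its mammary values at -6.08 and -0.35, while FN1 is near 0 in liver and below -3 in mammary gland.

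Many of the leading liver genes, though not FN1, shared a large shift between the dyes. For SERPINA3-3, the level with the tissue in Cy5 was higher than in Cy3 by 4.84 in liver and by 5.73 in mammary gland. Most of the shift thus cancelled in the difference, and the rest is in its error. In all, 23 genes had such a shift of at least 2 log2 units in both tissues, and all 23 were among the genes higher in liver. Across the 598 genes past the rule the shifts in liver and mammary gland correlated at 0.71, against 0.45 across all genes. For these genes the level on a single array depends on the dye, and the plot of the dye shifts places them along the diagonal.

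**Figure D3:**
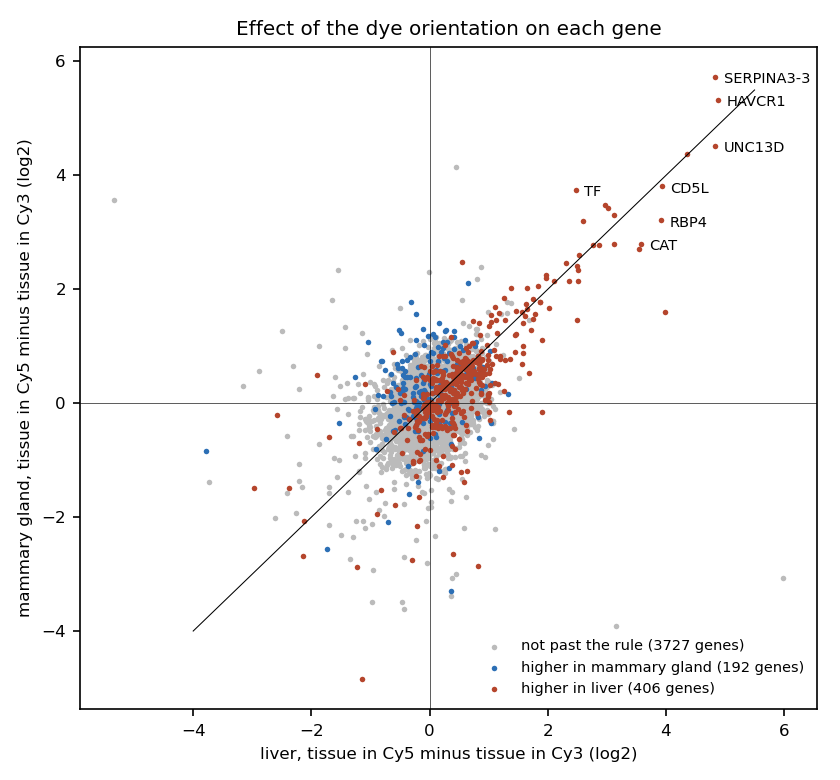
Level with the tissue in Cy5 minus level with it in Cy3 for each of 4325 genes, in liver (horizontal) and mammary gland (vertical), in log2 units; the line marks equal shifts. The points farthest along the line at the upper right are genes higher in liver, among them SERPINA3-3, HAVCR1 and UNC13D.

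Complement, the plasma cascade that tags microbes, was among the groups with the largest differences. Of 14 measured genes of complement and coagulation, 10 were higher in liver, none in mammary gland, and 4 passed in neither direction, with a median difference of 2.24 against -0.01 over all genes. The proteases that start the classical pathway led: C1R stood at 3.31 and 6.08 in liver and -1.33 and 1.44 in mammary gland, a 24.9-fold difference. C1S, its partner, stood at 3.18 and 6.29 in liver and -1.27 and 1.52 in mammary gland, a difference of 4.61 ± 0.16. C2, the next protease of the pathway, differed by 3.98 ± 0.04. Within each dye orientation the liver value of these 3 genes was the higher by more than 3 log2 units, while the Cy3 liver and Cy5 mammary values lay closer. C4A, which C1S cleaves, differed by 3.05 ± 0.43. Among 9 inhibitors of proteases in plasma or on cells, SPINT1 (4.38 ± 0.12), LOC338050, also listed as PCI (4.23 ± 0.26), and SERPING1, the inhibitor of C1R and C1S (3.33 ± 0.14), were higher in liver. SPINT2, a membrane inhibitor of epithelia, passed toward mammary gland at -1.47 ± 0.54, but its 2 elements disagreed in direction (-4.27 and 1.32) and it stood at -0.94 with the Cy3 arrays alone. The list's median was -0.53.

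Most measured genes of fatty acid oxidation were higher in liver. Of 39 genes listed 17 were measured, and the others were not analysed here. All 17 measured genes of mitochondrial oxidation and ketogenesis had a positive difference, and 13 passed the rule (median 2.08), in contrast to 9.39% of all genes. At uptake, SLC27A2, which imports and activates fatty acids, differed by 1.78 ± 0.03; it and CPT2 were chosen after their values were seen. CPT1A, the controlled step of mitochondrial entry, was at 1.63 and 1.73 in liver and -1.50 and -1.54 in mammary gland, with both of its elements above 3. The carnitine carrier SLC25A20 differed by 2.47 ± 0.07 and CPT2, on the inner membrane, by 1.85 ± 0.05. Of the chain-shortening enzymes, ACADS, ACADVL and HADH differed by 3.24 ± 0.10, 2.39 ± 0.10 and 2.96 ± 0.29. ETFDH, which passes the electrons to the respiratory chain, differed by 3.03 ± 0.43.

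Peroxisomes, which shorten very long and branched fatty acids, followed with 8 of 12 genes higher in liver and none in mammary gland (median 1.16). PHYH, which begins the breakdown of phytanic acid from chlorophyll, stood at 1.75 and 4.25 in liver and -2.19 and -0.72 in mammary gland. SCP2, a thiolase and sterol carrier, differed by 3.07 ± 0.19, ABCD3, a fatty acid importer, by 2.55 ± 0.11, and ACAA1 by 2.76 ± 0.98. The assembly factor PEX2 showed a smaller difference of 1.28 ± 0.02.

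Of 45 measured subunits of the chain and ATP synthase, 6 (13.3%, against 9.39% of all genes) were higher in liver and none in mammary gland, with a median of 0.63 and 35 positive differences. SDHD, a subunit of succinate dehydrogenase, led at 1.85 ± 0.21. ATP5F1A passed at 1.09 ± 0.76 but stood at 0.33 with the Cy5 arrays alone, and UQCRQ passed at 1.44 ± 0.55 but stood at 0.89 with the Cy3 arrays alone. In the citric acid cycle 5 of 15 genes were higher in liver, led by fumarase (FH) at 2.38 ± 0.42. Citrate synthase (CS), which opens the cycle, was the exception, at -2.37 and -1.75 in liver and -0.87 and -0.25 in mammary gland. Its difference of -1.50 was the same in both orientations, and its liver level lay below every adipose depot by more than 2-fold. IDH2 passed in liver at 1.02 ± 0.38 but stood at 0.05 when only the even-numbered spots were used. Of 10 mitochondrial carriers 4 were higher in liver, including the phosphate carrier SLC25A3 at 1.66 ± 0.06, while SLC25A6 (1.27 ± 0.97) fell short at 0.30 with the Cy3 arrays alone.

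Genes of detoxification were higher in liver in 9 of 15 cases and in no case higher in mammary gland (median 1.81). AOX1, an oxidase of aldehydes and aromatic rings, stood at 3.36 and 6.38 in liver and -0.73 and 2.70 in mammary gland, a difference of 3.89 ± 0.20. SULT1E1, which sulphates oestrogen, was at 2.19 and 2.80 in liver and -1.39 and -1.15 in mammary gland, without overlap. CYB5A, an electron donor to cytochrome P450 enzymes, differed by 3.51 ± 0.12, ALDH2 by 2.83 ± 0.18 and the flavin monooxygenase FMO5 by 2.62 ± 0.11. Of 4 genes of bile acid synthesis and hepatic transport, 3 were higher in liver: SLC10A1, which takes bile acids up from blood, at 5.56 ± 0.09, ABCC2, the canalicular export pump, at 4.04 ± 0.02, and SLCO2B1, an organic anion importer, at 3.16 ± 0.04.

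Of 7 cholesterol synthesis genes, 5 were higher in liver (median 1.53). ACAT2, which makes acetoacetyl-CoA, differed by 3.92 ± 0.23, and MSMO1, a sterol demethylase, by 2.31 ± 0.26. LSS, the cyclase that forms the first sterol, differed by 1.39 ± 0.17. IDI1 passed at 1.53 ± 0.44 through both spots together but not through either alone (0.66 and 1.26, the latter with opposite signs in the orientations).

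Methyl group metabolism held a few large differences within a list of mostly small ones. Of 14 genes of methionine, one-carbon and creatine metabolism, 5 were higher in liver, with 1 in mammary gland (median 0.58). AHCY, which removes the S-adenosylhomocysteine left by methylation, stood at 2.63 and 4.19 in liver and -1.89 and -0.28 in mammary gland. GAMT, the methyltransferase that makes creatine, stood at 3.14 and 5.0 in liver and -1.28 and 0.49 in mammary gland, a difference of 4.46 ± 0.04. The folate enzyme MTHFD1 differed by 3.25 ± 0.74. AHCYL2, an AHCY relative, ran the other way at -1.23 ± 0.13 over 3 elements.

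Amino acid breakdown and the urea cycle had 6 of 19 genes higher in liver and 1 in mammary gland (median 0.83, 17 positive). HSD17B10, of isoleucine breakdown, led at 3.34 ± 0.05, ahead of ASS1, which joins citrulline and aspartate in the urea cycle, at 2.73 ± 0.15. OAT, which links ornithine to proline and glutamate, was the member higher in mammary gland, at -0.91 and -0.44 in liver and 0.35 and 1.04 in mammary gland.

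Genes of sugar metabolism lay on both sides. In gluconeogenesis, glycogen and lactate metabolism 4 of 14 genes (28.6%) were higher in liver, with 1 (7.14%) in mammary gland. The shares of all genes were 9.39% and 4.44%, and the list median was 0.34. PYGL, the liver glycogen phosphorylase, stood at 1.22 and 2.10 in liver and -1.24 and -1.08 in mammary gland. GCGR, the glucagon receptor, differed by 2.76 ± 0.58, and PPP1R3C, which brings a phosphatase to glycogen, by 1.69 ± 0.10. PHKB, a subunit of phosphorylase kinase, was the member higher in mammary gland at -1.03 ± 0.14, or -0.89 with the Cy3 arrays alone.

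In glycolysis and the pentose phosphate pathway 4 of 20 genes (20%) were higher in liver, while the median was -0.31. In mammary gland 1 was higher (5%), near the 4.44% of all genes. SORD, which turns sorbitol into fructose, stood at 2.36 and 4.87 in liver and -1.76 and 0.57 in mammary gland, a difference of 4.21 ± 0.09. GAPDH, often used as a reference gene, stood at -1.42 and -1.25 in liver and -3.39 and -3.52 in mammary gland, and differed by 2.12 ± 0.15. PKM, the muscle-type pyruvate kinase, was higher in mammary gland at -1.53 ± 0.73, or -0.80 with the Cy5 arrays alone. The hormone-related list had 2 of 16 genes higher in liver (12.5%) and 1 in mammary gland (6.25%), against 9.39% and 4.44% of all genes. IGFBP4, which binds insulin-like growth factors, differed by 3.07 ± 0.07 as the mean of 3 elements that ranged from 0.77 to 4.29.

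Genes that remove peroxides and repair oxidised proteins did not all lie on one side. Of 25 antioxidant and glutathione genes, 10 were higher in liver, with 3 in mammary gland (median 0.89). SOD1, the cytosolic superoxide dismutase, stood at 1.77 and 2.18 in liver and -1.14 and -0.96 in mammary gland. SELENOP, the plasma carrier of selenium, differed by 3.15 ± 0.04, the mitochondrial peroxiredoxin PRDX3 by 2.99 ± 0.19, and MSRA, which repairs oxidised methionine, by 2.54 ± 0.24. PRDX1 and PRDX2, cytosolic peroxiredoxins, were on the other side, whereas PRDX6 did not pass. PRDX1 stood at -2.99 and -2.62 in liver and -1.45 and -1.19 in mammary gland. PRDX2 stood at -2.33 and -2.18 in liver and -0.91 and -1.05 in mammary gland, a difference of -1.27 ± 0.14. TXNIP, which binds thioredoxin, was also higher in mammary gland, at -1.56 ± 0.23 over 3 elements. In liver the levels of PRDX2 and TXNIP, and of PRDX1, lay below every adipose depot by more than 2-fold.

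Iron, heme and metal genes had 8 of 17 members higher in liver and 1 in mammary gland (median 0.71). ALAS1, the first and controlled enzyme of heme synthesis, stood at 2.79 and 3.63 in liver and -1.14 and -0.77 in mammary gland, an 18.0-fold difference. TF, the plasma iron carrier, stood at 2.43 and 4.91 in liver and -3.86 and -0.11 in mammary gland, and SLC40A1, the iron exporter, differed by 2.80 ± 0.17. The zinc transporters SLC30A1 and SLC30A4 pointed in opposite directions. SLC30A1, of the plasma membrane, stood at 1.41 and 2.08 in liver and -1.72 and -0.71 in mammary gland. SLC30A4, which loads secretory vesicles with zinc, stood at 0.66 and 0.96 in liver and 2.76 and 3.84 in mammary gland.

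Milk and milk fat globule genes were the group with the most negative median among the functional lists. Of 11 measured members 7 were higher in mammary gland, against 2 in liver, and FOLR1 (-0.68 ± 0.12, or -1.42 after quantile normalisation) and PRDX6 (0.65 ± 0.15) passed in neither direction (median -1.86). MFGE8, which coats the milk fat globule, stood at -3.08 and -2.85 in liver and 3.17 and 4.25 in mammary gland, the most negative difference of any gene at -6.68 ± 0.43. SPP1 (osteopontin), a phosphoprotein of milk, stood at -3.35 and -2.58 in liver and 2.61 and 3.14 in mammary gland. These are means of 2 elements, whose differences were -7.96 and -3.72. PLIN2, the coat protein of lipid droplets, stood at -0.64 and -0.65 in liver and 3.33 and 3.84 in mammary gland. In these 3 genes the tissues did not overlap on any pair of arrays. XDH, a structural enzyme of the globule membrane, stood at 2.50 and 3.52 in liver and 4.40 and 5.33 in mammary gland. MUC1, a mucin of the apical membrane (-3.09 ± 0.90), ANXA5 (-2.40 ± 0.17) and the lipid droplet protein CIDEA (-1.50 ± 0.09) made up the 7. The 2 members higher in liver were CD59, an inhibitor of complement (1.38 ± 0.33), and NUCB1, a calcium-binding Golgi protein (2.04 ± 0.96), whose 2 elements stood at 0.24 and 3.84 and whose difference was 0.07 from the even-numbered spots alone.

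RETREG1, a receptor for the turnover of endoplasmic reticulum by autophagy, came after MFGE8 and SPP1 in the order of genes higher in mammary gland. Its level was -1.96 and -1.51 in liver and 2.72 and 2.89 in mammary gland, a difference of -4.54 ± 0.14 (23.3-fold). DNAJC12, a co-chaperone of aromatic amino acid hydroxylases, stood at 1.14 and 0.996 in liver and 4.14 and 4.35 in mammary gland, and below 0 in all adipose depots. HPRT1, a purine salvage enzyme often taken as a reference gene, differed by -2.67 ± 0.60. GIPC2 (-2.84 ± 0.90), METTL9 (-2.45 ± 0.17) and VEGFB, a growth factor for vessels and fat handling (-2.43 ± 0.35), completed the first 20 beside the genes described with their groups.

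Transcription and splicing factors of epithelium were higher in mammary gland in 5 of 21 measured genes of mammary regulators and prolactin signalling, and none were higher in liver (median -0.40). EHF, an ETS factor of epithelia, stood at -0.11 and -0.53 in liver and 3.28 and 3.84 in mammary gland. TFAP2A, an AP-2 factor, stood at -0.18 and -0.98 in liver and 1.94 and 2.69 in mammary gland, and its relative TFAP2C differed by -1.29 ± 0.01. GATA3, which maintains the luminal lineage, stood at 0.49 and 0.46 in liver and 2.46 and 3.64 in mammary gland. ESRP1, an epithelial splicing factor, differed by -2.82 ± 0.07. All 5 were above every adipose depot by more than 2-fold in mammary gland.

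Of 19 keratin and epithelial identity genes, 9 were higher in mammary gland, against 2 in liver (median -0.89, 16 negative). KRT19, a keratin of ducts and glands, stood at 1.15 and 1.44 in liver and 3.86 and 5.14 in mammary gland. The keratin KRT15 (-1.56 ± 0.19), the tetraspanin CD9 (-2.20 ± 0.44) and the adhesion molecule EPCAM (-1.18 ± 0.31) were on the same side, EPCAM at -0.87 with the Cy5 arrays alone. The members higher in liver were SPINT1 and KRT18, a keratin that hepatocytes also make, at 1.09 ± 0.09, or 0.88 without centring. Of KRT18's 3 elements the lowest stood at 0.00. Of 25 junction and polarity genes none was higher in mammary gland and 3 (12%) were higher in liver, a share near the 9.39% of all genes, with CLDN1, a tight junction protein, at 2.39 ± 0.29. The median of that list was 0.08 and became -0.14 without centring and -0.07 after quantile normalisation.

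Lactose synthesis and glucose uptake showed 2 of 10 genes higher in mammary gland (20%) and 1 in liver (10%), against 4.44% and 9.39% of all genes. B4GALT1, the galactosyltransferase of lactose synthase, stood at 0.42 and 0.47 in liver and 2.61 and 3.49 in mammary gland. SLC2A1, the glucose transporter GLUT1, stood at -0.96 and -1.13 in liver and 0.33 on both mammary arrays. GALT, of galactose use, was the member higher in liver, at 1.52 ± 0.28. The list median was 0.07, and -0.14 without centring.

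In fatty acid and triglyceride synthesis 5 of 17 genes were higher in mammary gland, against 2 in liver (median -0.29). ACSS1, which activates acetate, stood at 0.05 and -0.43 in liver and 2.06 and 2.80 in mammary gland. AGPAT1, an acyltransferase of triglyceride synthesis, differed by -2.10 ± 0.05. FABP5, a fatty acid carrier, differed by -2.25 ± 0.02 as the mean of 4 elements between -3.90 and -0.26. SREBF1, the lipogenic transcription factor, rested on a single mammary array: it stood at -0.73 and -0.37 in liver and at 3.05 and -0.26 in mammary gland, and its difference was -0.11 with the Cy5 arrays alone. MLXIPL, the carbohydrate-responsive factor, was higher in liver at 2.07 and 2.95, against -0.11 and 0.51 in mammary gland. HACD2, of fatty acid elongation, was the other member higher in liver, at 1.26 ± 0.08. Of 12 lipid droplet and lipolysis genes, 4 were higher in mammary gland and LIPA, the lysosomal lipase, in liver at 2.17 ± 0.13.

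Among 20 genes of calcium, ion and water transport, 5 were higher in mammary gland, against 2 in liver (median -0.14). ATP2C2, which pumps calcium into secretory vesicles, stood at 0.56 and 0.62 in liver and 2.07 and 3.28 in mammary gland. The pore and the sensor of store-operated calcium entry lay on opposite sides. ORAI1, the pore, stood at 0.11 and 0.08 in liver and 1.26 and 2.10 in mammary gland. STIM1, the sensor, stood at 0.88 and 0.90 in liver and -0.77 and -0.35 in mammary gland, a difference of 1.45 ± 0.20. SCNN1A, a subunit of the epithelial sodium channel, differed by -1.94 ± 0.55. The water channel AQP3 (-1.47 ± 0.58) and the potassium channel KCNK1 (-1.31 ± 0.49) fell short with the Cy3 arrays alone, at -0.89 and -0.82. ABCG2, which carries riboflavin and drugs into milk, stood at 2.65 and 3.16 in liver and 4.73 and 5.41 in mammary gland.

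**Figure D4:**
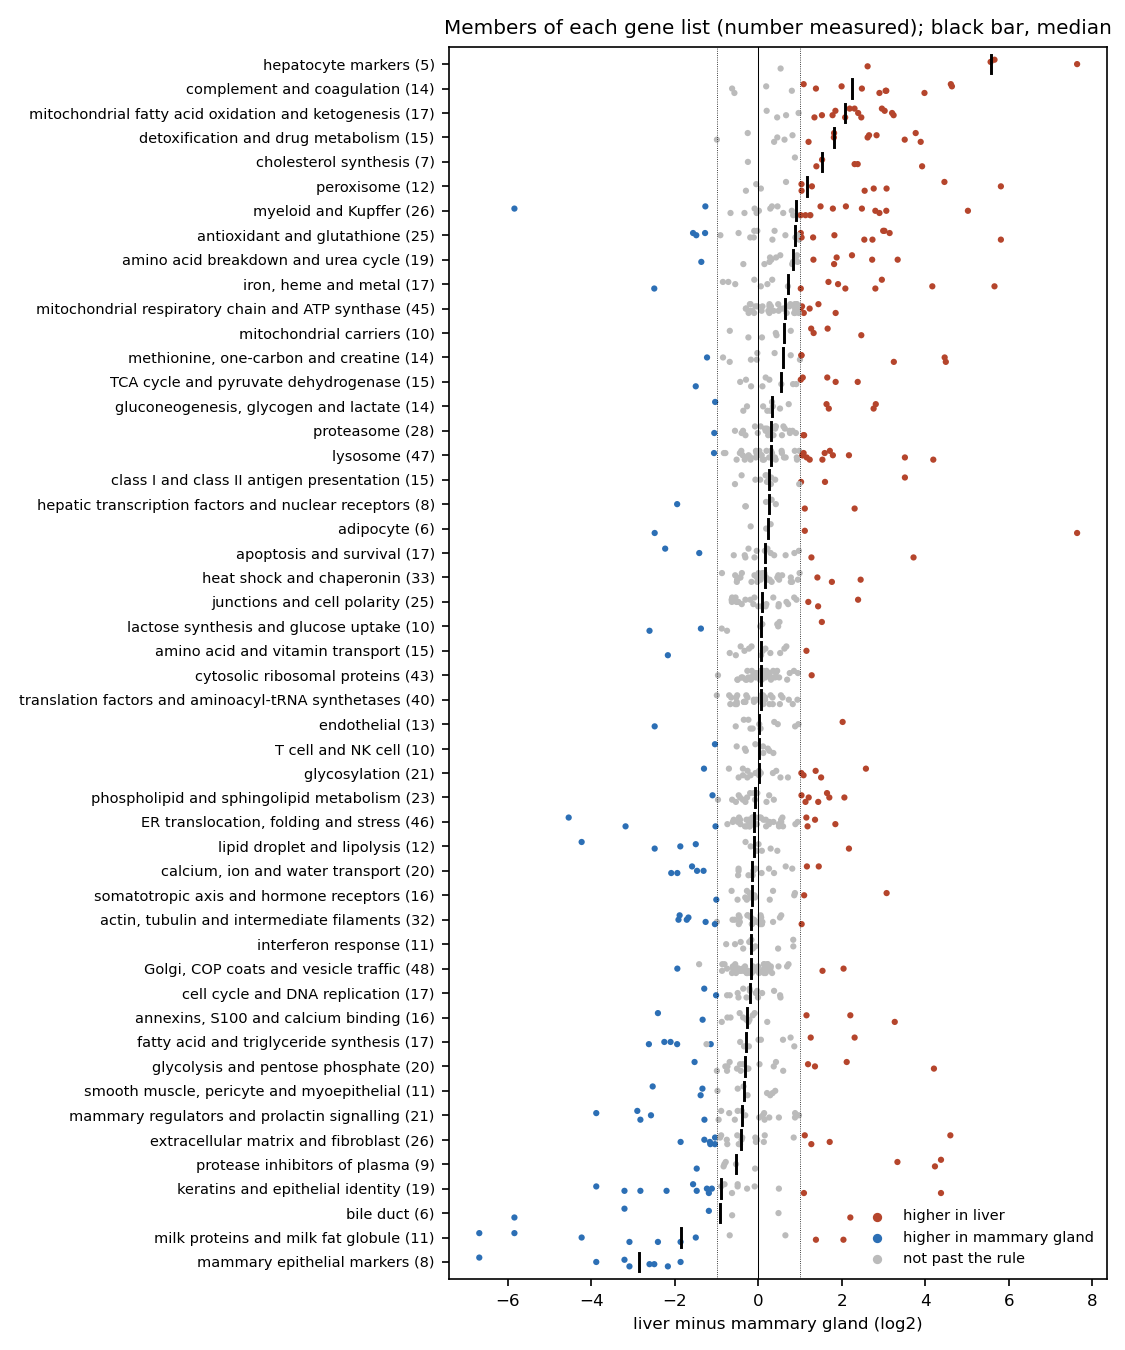
Difference between liver and mammary gland (horizontal, log2 units) for each measured member of the gene lists with at least 5 measured genes, ordered by list median (black bar); dotted lines mark 2-fold. Complement and coagulation (median 2.24) and fatty acid oxidation (2.08) lie to the right, milk genes (-1.86) to the left, and the ribosomal and translation lists close to 0.

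Few genes of protein synthesis passed the rule. None of 40 translation factors and aminoacyl-tRNA synthetases passed in either direction (from -0.99 to 0.94), and 1 of 43 cytosolic ribosomal proteins did, RPS27 at 1.28 ± 0.56 (0.72 with the Cy3 arrays alone). Their medians were both 0.06 and turned negative without centring, at -0.16 and -0.15. Of 46 genes of translocation, folding and stress in the endoplasmic reticulum, 4 were higher in liver, with 3 in mammary gland (median -0.10), at 8.7% and 6.52% near the shares of all genes (9.39% and 4.44%). The disulphide isomerase PDIA4 stood at 0.97 and 1.18 in liver and -0.84 and -0.70 in mammary gland, and ERP44, its relative that retains cargo, differed by 1.36 ± 0.02. On the mammary side SSR3, of the translocon, lay at the edge of the rule (-1.02 ± 0.02), beside RETREG1 and DNAJC12.

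Golgi, coat and vesicle traffic genes gave 2 of 48 (4.17%) higher in liver against 1 (2.08%) in mammary gland (median -0.17). Both shares were below those of all genes (9.39% and 4.44%). The lectins that ferry glycoproteins out of the endoplasmic reticulum were the members in liver, LMAN2 at 2.04 ± 0.18 and LMAN1 at 1.54 ± 0.41. RAB18, a GTPase of lipid droplets, was the member in mammary gland at -1.94 ± 0.14. Among 21 glycosylation genes, ST3GAL1, a sialyltransferase, led the 5 higher in liver at 2.58 ± 0.21, and GALNT3, which starts mucin-type glycans, was higher in mammary gland at -1.30 ± 0.06. Of 33 heat shock and chaperonin genes, 3 (9.09%, against 9.39% of all genes) were higher in liver: the mitochondrial chaperones HSPE1 (2.45 ± 0.29), HSPD1 (1.76 ± 0.07) and HSPA9 (1.42 ± 0.48). HSPE1 stood at 0.02 when values at the measurement ceiling were kept, and HSPA9 at 0.93 with the Cy3 arrays alone. In the proteasome list 2 of 28 genes passed in liver (7.14%) and 1 in mammary gland (3.57%), near the shares of all genes (9.39% and 4.44%).

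Lysosomal genes were higher in liver in 12 of 47 cases and in mammary gland in 1 (median 0.30). CTSV, a cysteine cathepsin, stood at 0.68 and 0.70 in liver and -3.44 and -3.56 in mammary gland, an 18.3-fold difference between arrays that hardly differed by dye. LGMN, an asparaginyl protease, differed by 3.51 ± 0.08. LIPA came next, and the membrane proteins CD68 and LAMP1 differed by 1.79 and 1.71 ± 0.12. NPC2, which binds cholesterol in the lysosome, was higher in mammary gland at -1.06 ± 0.36, or -0.70 with the Cy3 arrays alone. Phospholipid and sphingolipid genes gave 7 of 23 higher in liver and 1 in mammary gland, led by SGPL1, which breaks down sphingosine phosphate, at 2.06 ± 0.11, whereas the median was -0.08.

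The annexins, proteins that bind membranes with calcium, split within the family. ANXA6 stood at 1.58 and 3.17 in liver and -1.39 and -0.39 in mammary gland, and ANXA4 differed by 2.20 ± 0.14. ANXA5 stood at -2.46 and -2.11 in liver and 0.11 and 0.12 in mammary gland, with both elements below -2. The list includes S100 proteins. It had 3 of 16 genes higher in liver (18.8%) and 2 in mammary gland (12.5%), against 9.39% and 4.44% of all genes. In the cytoskeleton 6 of 32 genes (18.8%) were higher in mammary gland, with 1 in liver (3.12%), and the median was -0.17. EZR (ezrin), which ties actin to the apical membrane, differed by -1.91 ± 0.23, gelsolin (GSN) by -1.88 ± 0.27 and TUBA1A by -1.71 ± 0.17. Of 17 cell cycle and replication genes 2 (11.8%, against 4.44% of all genes) were higher in mammary gland. These were UBE2C (-1.01 ± 0.58) and RFC2 (-1.29 ± 0.35), both short of the rule with the Cy5 arrays alone (-0.43 and -0.94). GADD45A, a stress-induced growth arrest gene, differed by 3.72 ± 0.30 toward liver and PDCD4, an inhibitor of translation, by -2.23 ± 0.27.

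Markers of other cell types differed between the tissues too, and in whole-tissue RNA a larger share of a cell type and more RNA per cell cannot be told apart. Of 26 myeloid and Kupffer cell genes, 11 were higher in liver, with 2 in mammary gland, with a median of 0.91 and levels from -3.51 to 4.46 in liver and -2.28 to 2.88 in mammary gland. CD5L, a scavenger protein secreted by tissue macrophages, stood at 2.49 and 6.42 in liver and -2.47 and 1.34 in mammary gland, a difference of 5.02 ± 0.06. TIMD4, a receptor of resident macrophages, stood at 1.74 and 2.36 in liver and -0.53 and 0.44 in mammary gland. The C1q chains C1QA and C1QB, made by macrophages, differed by 2.90 ± 0.40 and 3.07 ± 0.21. CD163, the haemoglobin scavenger receptor, chosen here after its value was seen, stood at 0.06 and 0.16 in liver and 0.40 and 0.48 in mammary gland. The members higher in mammary gland were SPP1, which is also in the milk list, and LGALS3, a galectin (-1.27 ± 0.69, or -0.58 with the Cy5 arrays alone). The part of macrophages in the differences of complement, iron and lysosomal genes was not tested.

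In the fibroblast and matrix list 6 of 26 genes (23.1%) were higher in mammary gland, against 4.44% of all genes. In liver 4 were higher (15.4%, against 9.39% of all genes), and the median was -0.42. MMP2, a gelatinase, stood at -2.24 and -1.52 in liver and -0.33 and 0.29 in mammary gland. COL4A2 (-1.15 ± 1.05) stood at -0.10 with the Cy3 arrays alone, and COL12A1 (1.27 ± 0.11), with elements from -0.47 to 3.70, at 0.58 by its median element. Of 11 smooth muscle, pericyte and myoepithelial genes 3 were higher in mammary gland, and all 3 encode actin-binding proteins: TPM1 (-2.53 ± 0.35), TAGLN (-1.34 ± 0.08) and TPM2 (-1.38 ± 0.69, but -0.69 with the Cy5 arrays alone and -0.40 and -0.30 from the odd and the even spots). Endothelial genes gave 1 of 13 (7.69%) in each direction, against 9.39% of all genes toward liver and 4.44% toward mammary gland. These were LYVE1, of liver sinusoids and lymphatics, at 2.02 ± 0.14 and caveolin CAV1 at -2.48 ± 0.40. Of 10 T cell and NK cell genes, 1 (10%) was higher in mammary gland, against 4.44% of all genes, and none in liver. The gene was ZAP70 at -1.04 ± 0.47 (-0.57 with the Cy3 arrays alone). None of 11 interferon response genes passed in either direction (from -0.77 to 0.84). In antigen presentation 3 of 15 were higher in liver, including the Fc receptor FCGRT at 1.60 ± 0.07. In the bile duct list 3 of 6 were higher in mammary gland, which are KRT19, EPCAM and SPP1. ANXA4, of the same list, was higher in liver at 2.20 ± 0.14. Adipocyte genes gave 2 of 6 higher in liver, RBP4 and CEBPA, and 1 in mammary gland, CAV1. Of 2 B cell genes, SDC1 was higher in liver at 1.63 ± 0.22 and IGHM, at 0.14 ± 0.31, was not, and none of the 4 measured nerve and muscle genes passed.

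The adipose depots served to place both tissues against others of the series. They were set beside liver and mammary gland as the dye-swap mean of each depot; the labels of the omental array in Cy5 disagree on its dye, and the dye field was used. Of 405 genes higher in liver with values in every depot, liver stood above all 3 depots by at least 2-fold in 167 (41.2%), mammary gland stood below all 3 in 36 (8.89%), and both held in a further 11. Neither held in 191. Of 189 genes higher in mammary gland, the gland stood above all depots in 48 (25.4%), liver stood below all depots in 45 (23.8%), both held in a further 2 (MFGE8 and ACSS1) and neither held in 94. These genes were chosen by their liver and mammary values, so the shares are a description.

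The genes that mammary gland held below every depot included FN1, the C1q chains C1QA and C1QB, TIMD4, SLC40A1, HADH and GPX3, a plasma glutathione peroxidase. HADH stood at -1.09 and -0.32 in mammary gland, against depot means of 0.38 to 1.59. In liver it stood at 1.57 and 2.94, with a mean of 2.25. C1QA was at -0.34 and 0.77 in mammary gland, 1.97 to 2.68 in the depots and 2.16 and 4.07 in liver. The genes that liver held below every depot included CAV1, MMP2, FABP5, ANXA5, SPP1, PRDX1 and PRDX2. FABP5 was at -0.35 and -0.36 in liver, 1.87 and 1.91 in mammary gland and 3.20 to 3.82 in the depots, so mammary gland lay between. The plot against adipose tissue shows both kinds.

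**Figure D5:**
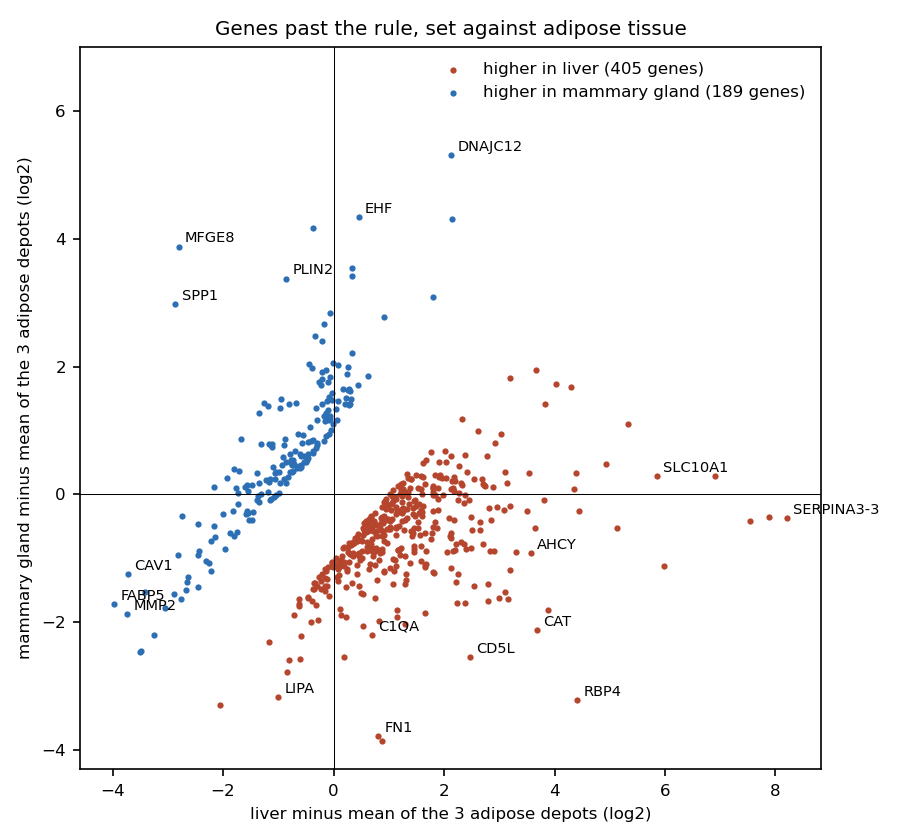
Genes past the rule, with liver minus the mean of the 3 adipose depots on the horizontal axis and mammary gland minus that mean on the vertical axis, in log2 units; 405 genes higher in liver and 189 higher in mammary gland with values in every depot. Genes such as SERPINA3-3 and SLC10A1 lie far right near the horizontal axis, FN1 lies far below it, and CAV1 and FABP5 lie far left.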

How the data were processed

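The authors deposited 1 table of log2 ratios for 10 two-colour cDNA arrays, per the labels; the base was taken as log2 because values end at a ceiling of 16.61, which is not stated. The labels' protocols name 20 ug of RNA per hybridisation, a Scanarray 4000 scanner and GenePix 4.0 for the images. The sources used here do not say how background was corrected or values normalised, intensities were not used, and signal over background is unknown, so the number of arrays limits the precision.

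Ceiling values were set missing, arrays with the tissue in Cy3 were sign-turned, each array was centred on its median, and neighbouring spots were averaged (Python 3.11.15, numpy 2.4.6, pandas 2.3.3, matplotlib 3.10.9). Identifiers did not match the table's order, so layouts were searched for likeness of clones of one gene over the tissues: 48 table blocks of 171 elements and 16 annotation blocks of 528 gave a mean cosine of 0.671 over 563 clone pairs, the next layout 0.267 and the listed order 0.019. Of the identifiers 10884 had 1 symbol, 186 several and 5346 none. Symbols were updated for 5467 of 5472 named elements through the RefSeq gene table of ARS-UCD2.0, giving 4366 genes. Elements of a gene were averaged, and 4325 genes had all 4 arrays. The script was tested on simulated data.

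Named genes are the 20 largest past the rule in each direction, up to 6 members past the rule in each direction of each of 56 gene and marker lists with any member past it against the list's majority, and all measured marker and milk genes. Members, lists and rule were chosen with earlier results of these data known. Tests across samples, sequences and promoters were not analysed here. The 12 alternatives covered centring, quantile normalisation, ceiling values, spots, elements, fold and single orientations.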

Additional observations from a re-analysis of the deposited data

How the results depend on the processing

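Of 225 named genes past the rule, no alternative that was run turned a direction. The rule was missed by 27 of them without centring, 29 after quantile normalisation, 28 with the Cy3 arrays alone and 14 with the Cy5 arrays alone, 11 and 12 with the odd or even spot alone, 2 by the median element and 1 (HSPE1) with ceiling values kept. The count higher in liver was 213 at 3-fold, 751 at 1.5-fold and 73 over genes with 2 or more elements, and ran from 421 to 504 with a single orientation. The count higher in mammary gland was 299 without centring, 70 at 3-fold, 482 at 1.5-fold and 46 over genes with 2 or more elements, and ran from 251 to 260 with a single orientation. The dye contrast took 19 genes without centring, 14 at 3-fold, 137 at 1.5-fold and 3 over genes with 2 or more elements. Leaving out centring moves the differences of all genes by the same amount, the median gene from -0.01 to -0.22, and the changes under that setting follow from this. The cause of the other changes was not tested, beyond the rule's size and the fewer genes that the settings themselves set. After quantile normalisation 306 genes were higher in liver, all among the 406, and 192 in mammary gland, 170 of them shared. Of 56 list medians, 11 changed sign without centring and 6 after quantile normalisation. No paired analysis was possible because each tissue is 1 RNA sample, and the numbers 1 and 2 stand for the dye orientation, within which every difference was taken.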

Other observations

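The 2624 elements that carry no name here and have values on the 4 arrays were set against the same rule: 202 (7.7%) lay toward liver and 134 (5.11%) toward mammary gland. At least 16-fold were 10 of them in liver and 3 in mammary gland. The extremes were 7.64 ± 0.23 toward liver and -7.85 ± 0.05 toward mammary gland. The latter lay beyond the most negative gene, MFGE8 at -6.68. It did not lie beyond every named element, since the lower of the 2 elements averaged for SPP1 stood at -7.96.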
